A study of Mus musculus with 48 samples.

Results

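The panel described here held the melanocyte lineage and pigment genes Tyr, Tyrp1, Dct, Pmel, Mlana, Mitf, Sox10, Slc45a2, Oca2 and Gpr143, 10 genes chosen by symbol from the 55450 gene identifiers of the count table, and every one of the 10 was measured in all 48 tumors. The tumors grew from B16-D5, a poorly immunogenic and highly metastatic subclone of the mouse melanoma B16, placed under the skin of the flank of C57BL/6J (WT) or iNOS KO mice 8 days before therapy began. The mice came at 4 weeks of age and were housed for 2 weeks. They were left untreated, or received 250 µg of anti-PD-1, an antibody against the T cell checkpoint receptor PD-1, or of control IgG in 200 µL of PBS. The protocol gives doses on day 0 and day 3, so tumors of 6 h and day 1 were taken after the first dose alone, and whether those of day 3 were taken before the second is not stated.

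In the time course, tumors of WT mice were taken untreated at 0 h, and untreated, after IgG or after anti-PD-1 at 6 h, day 1 and day 3, which gave 30 tumors in 10 groups. In the day 7 experiment, tumors of WT and iNOS KO mice were taken untreated, after IgG and after anti-PD-1, which gave 18 tumors in 6 groups. Each of the 16 groups held 3 tumors, each from its own mouse. Groups were read from the sample titles, since the genotype field gives WT for all 48 tumors although 9 titles give KO, and the treatment field matches the title in 14. The iNOS deletion was carried by the host alone, as the injected B16-D5 cells were the same in both genotypes, and B16-D5 is a single subclone. Tumors of KO titles had 1.15 to 5.92 CPM (counts of a gene scaled to the size of its library) of Nos2, the gene of iNOS, and day 7 tumors of WT titles 1.40 to 7.28 CPM (9 tumors each), so its RNA level did not separate the genotypes.

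Pigment cells make melanin inside melanosomes, organelles related to lysosomes. Tyr oxidizes tyrosine in the rate-limiting step, Tyrp1 and Dct act further along the eumelanin branch, Pmel forms the fibrils on which melanin is laid down, and Mlana is a melanosome protein needed for Pmel to mature. Slc45a2 and Oca2 encode transport proteins that help to keep the lumen of the melanosome near neutral pH, and Gpr143 is a receptor of the melanosome membrane. Sox10, a factor of the neural crest, drives Mitf, and Mitf, a basic helix-loop-helix factor that binds E-box sequences, drives many of the pigment genes. In melanoma the same proteins serve as antigens for T cells, and a loss of them is known as dedifferentiation.

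The promoters of the 3 enzymes are shown because they share a run of letters around the E-box CATGTG, the sequence that Mitf is known to bind, and that of the melanocyte start of Mitf because it holds the cyclic AMP response element TGACGTCA. Sequences are from RefSeq (GRCm38.p6, 250 bases before to 50 after the start, read 5′ to 3′ on the strand of the gene), and capitals mark the shared run or the response element. The windows lie at chr7:87493463-87493762 (minus strand) for Tyr, chr4:80833963-80834262 (plus) for Tyrp1, chr14:118052197-118052496 (minus) for Dct and chr6:97991533-97991832 (plus) for Mitf.
Tyr: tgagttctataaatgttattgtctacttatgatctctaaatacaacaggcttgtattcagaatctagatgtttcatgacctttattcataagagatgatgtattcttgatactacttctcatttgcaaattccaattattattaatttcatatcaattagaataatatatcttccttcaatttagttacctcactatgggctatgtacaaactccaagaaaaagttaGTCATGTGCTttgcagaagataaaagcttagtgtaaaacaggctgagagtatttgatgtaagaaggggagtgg
Tyrp1: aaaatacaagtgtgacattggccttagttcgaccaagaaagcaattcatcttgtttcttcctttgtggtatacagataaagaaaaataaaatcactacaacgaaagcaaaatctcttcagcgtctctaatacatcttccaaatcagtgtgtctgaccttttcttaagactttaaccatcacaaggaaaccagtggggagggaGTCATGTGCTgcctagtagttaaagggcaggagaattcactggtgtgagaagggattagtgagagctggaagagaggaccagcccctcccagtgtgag
Dct: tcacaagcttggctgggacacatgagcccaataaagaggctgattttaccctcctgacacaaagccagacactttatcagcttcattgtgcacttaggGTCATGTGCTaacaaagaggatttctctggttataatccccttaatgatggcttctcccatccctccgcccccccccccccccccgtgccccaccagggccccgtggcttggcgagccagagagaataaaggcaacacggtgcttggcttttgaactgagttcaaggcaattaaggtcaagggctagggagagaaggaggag
Mitf: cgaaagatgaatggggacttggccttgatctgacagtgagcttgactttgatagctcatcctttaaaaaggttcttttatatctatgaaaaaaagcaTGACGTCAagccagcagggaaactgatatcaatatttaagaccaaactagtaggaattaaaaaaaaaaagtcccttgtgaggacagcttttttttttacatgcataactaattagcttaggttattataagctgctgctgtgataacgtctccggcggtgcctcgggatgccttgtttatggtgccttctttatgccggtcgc
The run GTCATGTGCT, the longest that the 3 enzyme promoters have in common, starts 23 bases before the start of Tyr, 48 before that of Tyrp1 and 152 before that of Dct. Searched on both strands, it is in 60 of 32544 promoters of the same length (0.184%), while the E-box inside it is in 4610 (14.2%). The response element starts 153 bases before the start of Mitf and is in 586 promoters (1.801%). A match describes the letters of the window and does not show that a factor binds there. The table of promoters held 5 of the 10 genes, with 3 starts for Mitf and a window for Oca2 with 1 match to the E-box.

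Libraries had 11625862 to 47687872 counts on genes. The 10 genes took between 0.911% and 1.89% of the counts of a tumor, and every one of them passed the filter on low counts in both experiments. A set of 3 day 7 libraries, KO untreated 1 and WT anti-PD-1 3 and 4, stood apart: 1502 genes of olfactory, vomeronasal and taste receptors, genes used mainly in sensory tissues, summed to 915.9, 3709.9 and 1304 CPM there, against 12.3 to 232.5 CPM in the other 15 and 16.3 to 319.4 CPM in the time course. On day 7, the calls, medians and counts of the 10 genes for KO against WT hosts are given with and without them. Counts for lists of other genes at an unadjusted p are for all 18 unless stated, as are the values of single tumors. In a bulk tumor, fewer melanoma cells and less RNA of a gene in each cell cannot be told apart.

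Per kilobase of exon, Tyrp1 had the highest level of the 10 genes and Gpr143 the lowest. In the 30 tumors of the time course, the median was 1586 CPM per kb for Tyrp1, 929.7 for Pmel, 845.5 for Dct and 542 for Mlana. The factors followed with 222 CPM per kb for Sox10 and 125.5 for Mitf, and then Slc45a2 with 48.9, Tyr with 36.98, Oca2 with 9.85 and Gpr143 with 4.08. The order was the same on day 7, where the 18 tumors had medians from 1559 CPM per kb (Tyrp1) down to 5.97 (Gpr143). Of the 9 neighbours in that order, only Mlana and Sox10, and Tyr and Oca2, had ranges over the tumors that did not overlap, in both experiments. Tyr, whose product limits melanin synthesis, thus lay far below Tyrp1 and Dct, the genes of the enzymes that act after it. By mean CPM not divided by length, Dct ranked 14th, Tyrp1 15th and Pmel 27th of 49294 genes with counts in the time course, while Slc45a2 ranked 1261st, Oca2 4968th and Gpr143 9956th. The markers of the labelled cell type were thus all detected, and not all of them were high.

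**Figure D1:**
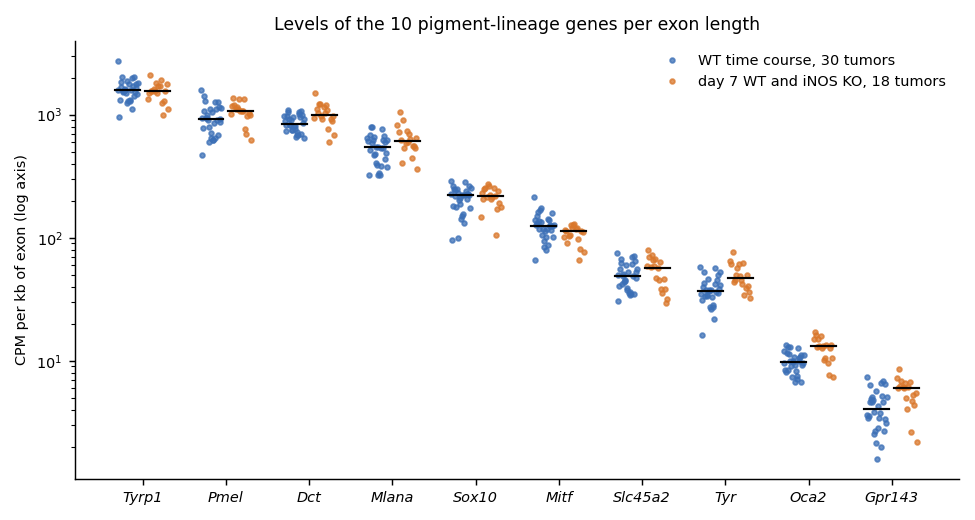
CPM per kb of exon (log axis) of the 10 genes in each tumor of the time course (30 points, blue) and of day 7 (18 points, orange), with the median as a bar. The order of the genes, from Tyrp1 (1586 and 1559 CPM per kb) to Gpr143 (4.08 and 5.97), was the same in both experiments.

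In gene models of GENCODE vM21 (GRCm38), Tyr lies at chr7:87424771-87493512 on the minus strand, Tyrp1 at chr4:80834123-80851719 on the plus strand and Dct at chr14:118012790-118052244 on the minus strand. Pmel lies at chr10:128704195-128720238 and Mlana at chr19:29697824-29708634, both on the plus strand. Mitf lies at chr6:97807052-98021349 on the plus strand and Sox10 at chr15:79154908-79165240 on the minus strand. Slc45a2 (chr15:11000721-11029233), Oca2 (chr7:56239760-56536518) and Gpr143 (chrX:152781921-152808646) lie on the plus strand. Pmel overlaps Cdk2 on the other strand, and counting is not stated to use strand, so reads of the overlap could go to either. Cdk2 had a median of 11221 counts and Pmel 78624.

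Over the first days the 10 genes had their lower levels on day 1. From 6 h to day 1, all 10 log2 differences were below 0 (median -0.34, against 0.05 over all genes), and from day 1 to day 3 all 10 were above 0 (median 0.38, against -0.06). These comparisons set the mean of the 3 treatments at one time against that at the next, 9 tumors against 9, and were chosen after the values were seen. No gene passed edgeR's quasi-likelihood test in either after Benjamini-Hochberg adjustment (0 of 10 members, and 0% of 26848 genes). At an unadjusted p under 0.05, 6 members were lower on day 1 than at 6 h, where 7.55% of all genes were, and 7 were higher on day 3 than on day 1, where 5.95% of all genes were. Mitf had the strongest test on day 1, -0.53 (SE 0.145, adjusted p = 0.182) on the log2 scale. DESeq2 called Mitf and Mlana lower on day 1 (2 of 10, beside 3.3% of the genes it tested) and 0 members between day 1 and day 3. Without the filter on low counts, edgeR called the same pair (2 of 10, beside 0.276% of all genes), and Tyr higher on day 3 (1 of 10, beside 0.103%).

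**Figure D2:**
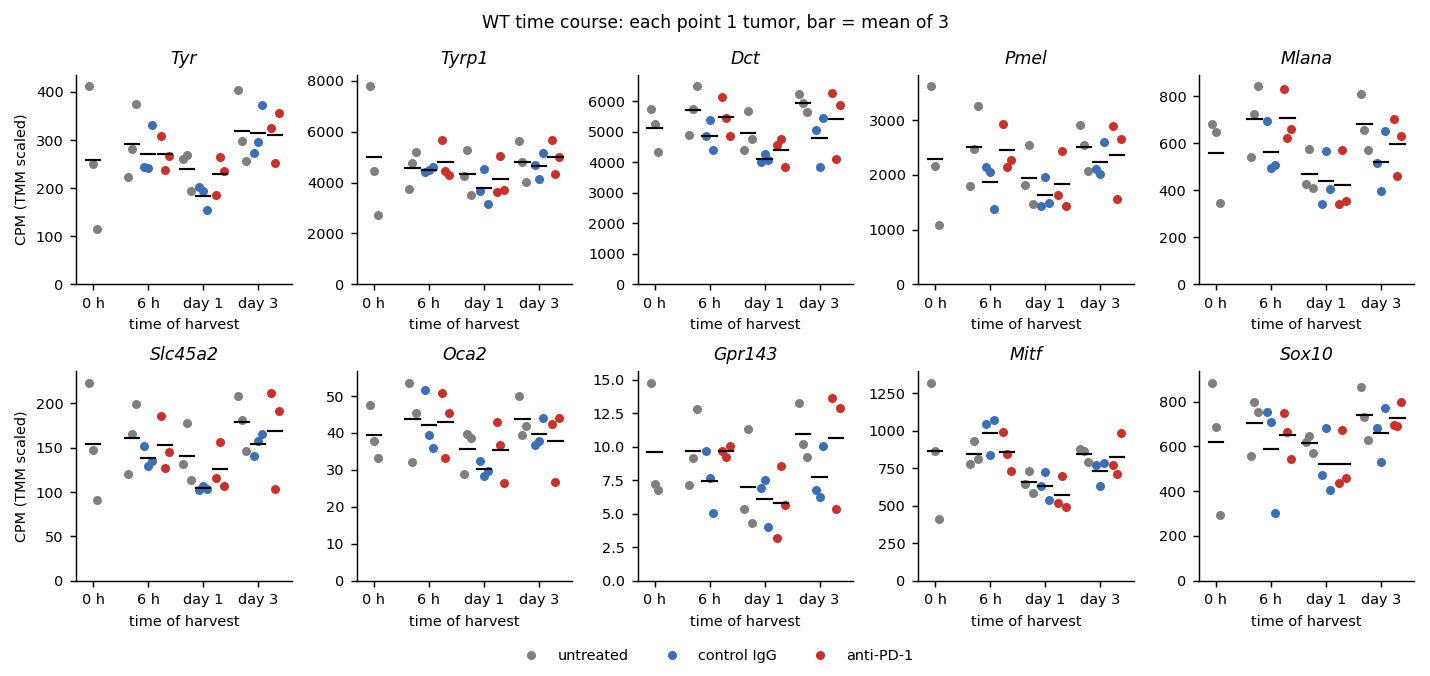
CPM of each of the 10 genes (vertical axes, from 0) by time of harvest in WT mice; each point is 1 tumor, colored by treatment, and bars are means of 3 tumors. In Mitf, the 9 tumors of day 1 lie between 495 and 732 CPM and the 9 of 6 h between 734 and 1074 CPM.

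Mitf, the factor of the pigment programme, had 779.9, 936 and 815 CPM in the 3 untreated tumors at 6 h, 1045, 837 and 1074 after IgG and 996, 847 and 734 after anti-PD-1. On day 1 it had 648, 732 and 587 CPM untreated, 629.5, 725 and 537 after IgG and 519.6, 698 and 495 after anti-PD-1. Each of the 9 tumors of day 1 was below each of the 9 of 6 h, by a margin of under 2 CPM at the nearest pair, and only 1 other gene of 26848, Dnajc25, had such an order (0.00745% with Mitf). On day 3 the values were 880.1, 867 and 790.0 CPM untreated, 769.7, 633 and 788 after IgG and 775, 715 and 985 after anti-PD-1, which overlapped both earlier times, and 0% of genes had each day 3 tumor above each day 1 tumor. The 3 tumors at 0 h spread wider than those of any later group, with 1321, 867 and 412 CPM. Between day 1 and day 3 the fitted difference of Mitf was 0.37 on the log2 scale.

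Sox10, the factor that acts above Mitf, had a smaller difference from 6 h to day 1 (-0.23 on the log2 scale) and one of 0.37 from day 1 to day 3. Its level was 621 ± 301 CPM at 0 h (mean ± SD, n = 3, as for the groups that follow). At 6 h it was 703 ± 128 CPM untreated, 588 ± 249 after IgG and 652 ± 105 after anti-PD-1. On day 1 the same groups had 614 ± 37.7, 519.8 ± 145 and 523 ± 131 CPM. The spread after IgG at 6 h came from a single tumor, number 6, with 301 CPM against 708 and 754 in the other two. On day 3 Sox10 had 742 ± 118 CPM untreated, 661 ± 120.4 after IgG and 728 ± 60.2 after anti-PD-1.

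Among the enzymes, Tyr had the largest difference between day 1 and day 3, 0.54 (SE 0.167, adjusted p = 0.348) on the log2 scale. Its values at 6 h were 222, 281 and 374 CPM untreated, 243, 241 and 331 after IgG and 307, 239 and 267 after anti-PD-1. On day 1 they were 260.2, 269 and 193 CPM, 201, 193 and 154 CPM and 187, 265 and 236 CPM in the same order. Over all treatments, Tyr ranged from 222 to 374 CPM at 6 h and from 154 to 269 CPM on day 1, so these times overlapped. On day 3 Tyr had 405, 299 and 256 CPM untreated, 274, 296 and 372 after IgG and 325, 253 and 357 after anti-PD-1. At 0 h it had 412, 250.2 and 116 CPM, the highest and the lowest of all 30 tumors among them.

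Tyrp1 and Dct, the enzymes after Tyr, varied less by group than Tyr. Tyrp1 had 4987 ± 2568 CPM at 0 h. The groups of 6 h had 4582 ± 753 CPM untreated, 4511 ± 97.2 after IgG and 4800.4 ± 763 after anti-PD-1. The same groups had 4346 ± 896, 3789 ± 696 and 4128 ± 778 CPM on day 1 and 4818 ± 803, 4669 ± 499.6 and 5018 ± 672 CPM on day 3. The ratio of its highest to its lowest group mean was 1.32, the smallest of the 10 genes in the time course. Dct had 5111 ± 716 CPM at 0 h. Its level at 6 h was 5704 ± 788 CPM untreated, 4869 ± 487 after IgG and 5488 ± 641 after anti-PD-1. The same groups had 4946 ± 664, 4107 ± 129.7 and 4389 ± 478 CPM on day 1 and 5932 ± 293, 4781 ± 843 and 5411 ± 1162 CPM on day 3. From one tumor to the next within a group Dct was the steadiest of the 10, with an SD of 0.196 on the log2 scale.

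Mlana, whose protein is the antigen MART-1, had 542, 727 and 843 CPM untreated at 6 h, 695, 494 and 506 after IgG and 833, 624 and 663 after anti-PD-1. On day 1 it had 426, 576 and 409.6 CPM untreated, 343, 567 and 406 after IgG and 342, 574 and 355 after anti-PD-1, and 1 tumor of each treatment lay within the range of 6 h. The difference was -0.56 (SE 0.155, adjusted p = 0.182) on the log2 scale, the largest of the 10 from 6 h to day 1. On day 3 Mlana had 811, 659 and 572 CPM untreated, 515, 399 and 652 after IgG and 705, 459.6 and 633 after anti-PD-1, and at 0 h 682, 648 and 345 CPM. Pmel, which makes the melanosome fibrils, had 2286 ± 1271 CPM at 0 h. At 6 h it had 2507 ± 739 CPM untreated, 1863 ± 424 after IgG and 2454 ± 423 after anti-PD-1. The same groups had 1945 ± 546, 1628 ± 297 and 1830.4 ± 527 CPM on day 1 and 2505 ± 425, 2239.8 ± 315 and 2369.8 ± 713 CPM on day 3.

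The genes of the transport proteins, Slc45a2 and Oca2, and of the receptor, Gpr143, had the 3 lowest mean CPM of the panel where CPM are not divided by length. Slc45a2 had 154 ± 66.4 CPM at 0 h. At 6 h it had 161 ± 39.6 CPM untreated, 138 ± 11.4 after IgG and 153 ± 30.3 after anti-PD-1. The same groups had 141 ± 33.7, 104 ± 2.37 and 126 ± 26.7 CPM on day 1 and 179 ± 31.4, 155 ± 12.2 and 169 ± 57.5 CPM on day 3. Its 3 tumors given IgG on day 1 lay closer together than those of any other group. Oca2 had 39.5 ± 7.33 CPM at 0 h. Tumors of 6 h had 43.8 ± 10.8 CPM untreated, 42.3 ± 8.24 after IgG and 43.1 ± 8.99 after anti-PD-1. The same groups had 35.7 ± 5.87, 30.1 ± 2.14 and 35.4 ± 8.28 CPM on day 1 and 43.8 ± 5.60, 39.6 ± 3.99 and 37.7 ± 9.57 CPM on day 3. Gpr143, at a few CPM, had the widest spread within groups, an SD of 0.499 on the log2 scale. Its level was 9.59 ± 4.49 CPM at 0 h. By 6 h the level was 9.70 ± 2.86 CPM untreated, 7.47 ± 2.29 after IgG and 9.67 ± 0.434 after anti-PD-1. The same groups had 6.98 ± 3.77, 6.14 ± 1.87 and 5.81 ± 2.71 CPM on day 1 and 10.9 ± 2.09, 7.71 ± 2.08 and 10.6 ± 4.56 CPM on day 3.

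Genes of other cells were read at the same times, and edgeR called 0 of them. All 10 markers of macrophages and all 10 of fibroblasts had log2 differences above 0 from 6 h to day 1, with an unadjusted p under 0.05 in 8 and 9 (beside 9.39% of all genes), and from day 1 to day 3 all 20 were below 0, with 6 of each list at such a p (beside 7.77%). All 10 adipocyte markers were also above 0 from 6 h to day 1 (median 1.88), 9 of them at such a p. The fibroblast markers summed to 2060.4 to 5212 CPM (median 3535) at 6 h, 3160.0 to 10706 CPM (median 4985) on day 1 and 1405 to 8857 CPM (median 3679) on day 3. Macrophage markers summed to 321 to 658 CPM (median 434), 437 to 1583 CPM (median 642) and 299 to 853 CPM (median 514) at those times, and 0 of the 20 markers were at 0 in any of these tumors. The 8 genes of proliferation were all below 0 from 6 h to day 1, each with an unadjusted p under 0.05 (beside 7.55% of all genes). The 8 hair follicle markers tested were below 0 as well (median -3.50), 5 of them at such a p. Follicles hold melanocytes of the host. Those markers summed to 3090.1 CPM in a single 6 h tumor, anti-PD-1 tumor 5, against 1.056 to 70.5 CPM in the other 8 of that time and 1.502 to 7.02 CPM on day 1. Without that tumor the median of the 10 pigment genes from 6 h to day 1 was -0.34, and 0 were called. The part of these cells in the levels of the pigment genes was not tested.

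No pigment gene passed the test of anti-PD-1 against control IgG at any time. At 6 h, day 1 and day 3, and in the mean of the 3 times, edgeR called 0 of 10 members (0% of all genes in each), 0 members had an unadjusted p under 0.05, and DESeq2 called 0. The medians of the 10 log2 differences were 0.15 at 6 h, 0.11 on day 1, 0.13 on day 3 and 0.13 in the mean, against medians over all genes of -0.07, -0.01, 0.00 and -0.04. Dct had the smallest p-value in the mean, with a log2 difference of 0.15 (SE 0.107, adjusted p = 0.917). At 6 h it was Pmel, at 0.40 (SE 0.325, adjusted p = 1), on day 1 Tyr, at 0.33 (SE 0.289, adjusted p = 1), and on day 3 Gpr143, at 0.46 (SE 0.412, adjusted p = 1). The medians moved with single tumors. At 6 h they went from 0.0050 (without anti-PD-1 tumor 1) to 0.21, on day 1 from -0.065 (without anti-PD-1 tumor 4) to 0.22 (without IgG tumor 4), and on day 3 from 0.031 (without anti-PD-1 tumor 3) to 0.29 (without anti-PD-1 tumor 4). With the receptor background of each library as a covariate, the 6 h median was -0.076.

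Tumors given IgG had lower mean levels of most members than untreated ones, but none passed the test. The median log2 difference was -0.22 at 6 h (9 of 10 below 0), -0.24 on day 1 and -0.19 on day 3 (all 10 below 0 on both), where all genes had medians of 0.10, 0.04 and -0.03. By edgeR and by DESeq2 0 members were called (0% of all genes by edgeR), and 0 members had an unadjusted p under 0.05. The smallest p-values were those of Pmel at 6 h, -0.43 (SE 0.326, adjusted p = 0.823), Slc45a2 on day 1, -0.43 (SE 0.266, adjusted p = 0.863), and Dct on day 3, -0.31 (SE 0.186, adjusted p = 1). Against untreated tumors, anti-PD-1 at 6 h gave a median of -0.03, with Tyr first at -0.11 (SE 0.289, adjusted p = 1). Leaving out 1 tumor moved the median of IgG against untreated tumors from -0.36 (without untreated tumor 1) to -0.084 (without untreated tumor 4) at 6 h, from -0.35 (without IgG tumor 4) to -0.095 (without untreated tumor 3) on day 1, and from -0.28 (without untreated tumor 4) to -0.063 (without untreated tumor 1) on day 3. The background covariate turned that of 6 h to 0.048. For anti-PD-1 against untreated tumors at 6 h, the median went from -0.17 (without untreated tumor 1) to 0.10 (without untreated tumor 4). These comparisons share their tumors, so their directions are not separate evidence. Untreated tumors of day 3 against those of 0 h had a median of 0.20, with Dct first at 0.21 (SE 0.186, adjusted p = 0.930), and 0 members were called in either (0% of all genes).

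Markers of other cells also had other levels after IgG than untreated, and edgeR called 0 of them. On day 1, all 10 leukocyte and all 10 macrophage markers were above 0 (medians 1.33 and 0.79 on the log2 scale), with 4 of each at an unadjusted p under 0.05 (beside 4.01% of all genes). The leukocyte markers summed to 507 to 724 CPM after IgG and to 196 to 385 CPM untreated, without overlap. The 8 genes of proliferation were below 0 (median -0.52), 5 of them at such a p (beside 1.42%). All 10 markers of skeletal muscle and all 10 of keratinocytes were above 0 at such a p, with medians of 7.05 and 7.42. These came from IgG tumor 6, with sums of 7884 and 930.1 CPM against at most 30.5 and 12.4 CPM in the other 5 tumors, and without it the median of the pigment genes was -0.14. On day 3, all 10 macrophage markers were above 0 (median 0.74), 3 of them at such a p (beside 1.36%). At 6 h, the 10 muscle markers were below 0 and those of keratinocytes, hair follicles and adipocytes above 0. Such a p was found in 0, 0, 2 and 3 of them, where of 26848 genes 948 were higher and 508 lower at such a p. The part of these cells in the lower levels of the pigment genes was not tested.

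One 0 h tumor, number 3, had the lowest Tyr, Tyrp1, Pmel, Mitf, Sox10 and Slc45a2 of all 30 tumors, and tumor number 1 of the same group the highest of all 6 and of Gpr143. Tumor 3 also had 5602 CPM in 10 keratinocyte markers and 6823 CPM in 10 markers of skeletal muscle, where tumor 1 had 23.3 and 907 CPM. Those genes belong to skin and to the muscle under it. Without 0 h tumor 3 the median of day 3 against 0 h was -0.02 in place of 0.20, and 0 members were called. Their part in the low levels was not tested.

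On day 7, tumors of iNOS KO hosts had higher mean levels of all 10 genes than those of WT hosts in the mean over the 3 treatments, and Slc45a2 had the largest ratio of difference to SE, but none passed the test by edgeR on all tumors. The median log2 difference was 0.33, against -0.19 over all genes. By edgeR 0 of 10 members were called, beside 3 of 30837 genes (0.00973%), and at an unadjusted p under 0.05 Tyr, Pmel, Mlana, Slc45a2, Oca2 and Gpr143 were higher in KO hosts (6 of 10, beside 5.07% of all genes). Slc45a2 had a log2 difference of 0.61 (SE 0.107, adjusted p = 0.100). Without the 3 libraries of high background, Tyr (0.53), Slc45a2 (0.69, adjusted p = 0.00355), Oca2 (0.52) and Gpr143 (0.76) were called (4 of 10, beside 0.872% of all genes), and 7 had an unadjusted p under 0.05 (beside 6.14%). In that fit the WT arm given anti-PD-1 is 1 tumor, which is assumed to vary like the other groups. DESeq2 called Tyr, Slc45a2 (adjusted p = 3.08e-06) and Oca2 (3 of 10, beside 2.51%), and edgeR without the filter on low counts Slc45a2, Oca2 and Gpr143 (3 of 10, beside 0.806%). Leaving out KO untreated tumor 1, one of the 3 libraries, or KO untreated tumor 4 was enough for Slc45a2 alone to be called (adjusted p = 0.0340 and 0.0472, beside 0.0324% and 0.104% of all genes), and over all settings its adjusted p went from 3.08e-06 to 0.27.

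**Figure D3:**
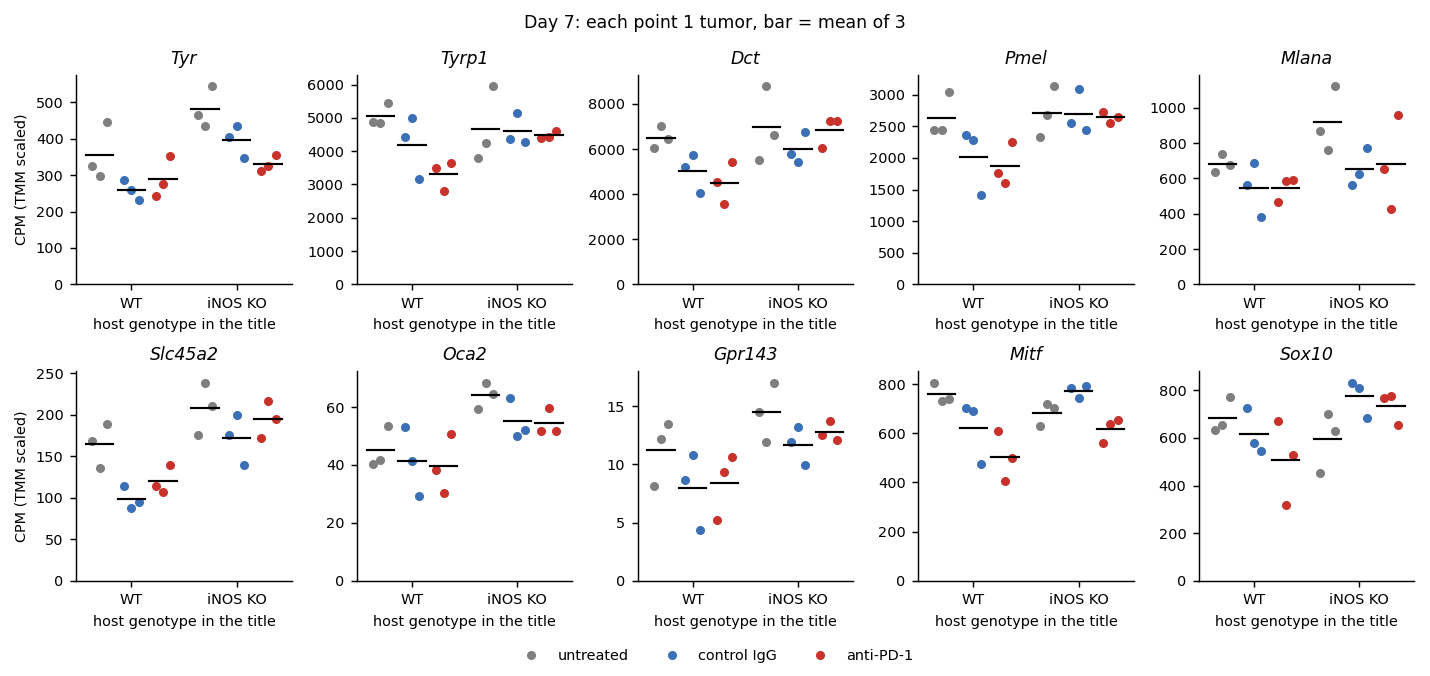
CPM of each of the 10 genes (vertical axes, from 0) on day 7 in tumors of WT and iNOS KO hosts; each point is 1 tumor, colored by treatment, and bars are means of 3 tumors. In Slc45a2, the 9 tumors of KO hosts lie between 140 and 238 CPM and the 9 of WT hosts between 87.7 and 189 CPM.

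Slc45a2, which acts on the pH of the melanosome, had 114, 87.7 and 94.9 CPM in the 3 WT tumors given IgG and 175, 199 and 139.9 in the 3 KO ones, so the groups did not overlap. After anti-PD-1 it had 115, 106 and 139 CPM in WT and 172, 216 and 195 in KO tumors, again with each KO tumor above each WT tumor. Untreated, the values were 169, 136 and 189 CPM in WT and 176, 238 and 209.9 in KO tumors, which overlapped at the lowest KO tumor. The log2 differences were 0.80 (SE 0.186, adjusted p = 0.626) after IgG, 0.70 (SE 0.186, adjusted p = 0.123) after anti-PD-1 and 0.34 untreated. Without the 3 libraries they were 0.84, 0.79 and 0.45, with 1 WT tumor left after anti-PD-1.

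Oca2, the other transport protein, had 40.5, 41.9 and 53.5 CPM in untreated WT tumors and 59.3, 68.4 and 64.6 in untreated KO tumors, with no overlap, and had the smallest p-value of the 10 there, with a log2 difference of 0.50 (SE 0.204, adjusted p = 0.299) and, without KO untreated tumor 1 and the other 2 libraries, of 0.56. After IgG it had 52.95, 41.4 and 29.4 CPM in WT and 62.97, 49.97 and 52.2 in KO tumors, which overlapped. After anti-PD-1 it had 38.2, 30.2 and 50.6 CPM in WT and 51.7, 59.6 and 51.8 in KO tumors, and the 2 nearest tumors differed by about 1 CPM. In the mean the log2 difference was 0.46 (chosen, like the other differences of members that were not first in their comparison, after the values were seen). Gpr143, the melanosome receptor, had 8.13, 12.2 and 13.4 CPM in untreated WT tumors and 14.5, 11.9 and 17.01 in untreated KO tumors. After IgG it had 8.65, 10.8 and 4.36 CPM in WT and 11.9, 13.2 and 9.99 in KO tumors. After anti-PD-1 the values were 5.23, 9.38 and 10.6 and 12.5, 13.7 and 12.1 CPM, and only there did WT and KO not overlap.

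Tyr had 286, 258 and 232 CPM in WT tumors given IgG and 405, 434 and 347 in KO tumors, with no overlap and a log2 difference of 0.61. Untreated it had 324, 298 and 446 CPM in WT and 464, 435 and 544 in KO tumors (0.43), and after anti-PD-1 242, 277 and 353 and 310.4, 324 and 354 CPM (0.18). Both of these overlapped. The log2 differences of Tyr without the 3 libraries were 0.66, 0.47 and 0.47 in that order. Dct had 6498 ± 502 CPM in WT and 6968 ± 1660.2 in KO tumors untreated (mean ± SD, n = 3), 5007 ± 858 and 5994 ± 696 after IgG, and 4505 ± 921 and 6855 ± 689 after anti-PD-1. Tyrp1, in the same order, had 5055 ± 333 and 4666 ± 1128 CPM untreated, 4188 ± 939.8 and 4599 ± 473 after IgG, and 3322 ± 445 and 4474 ± 116 after anti-PD-1. Untreated, the mean of Tyrp1 was thus lower in KO than in WT tumors (log2 difference -0.12).

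Pmel had 2640.4 ± 354 CPM in untreated WT and 2714 ± 402 in untreated KO tumors, 2022 ± 525 and 2694 ± 351 after IgG, and 1872 ± 334 and 2645 ± 82.6 after anti-PD-1. Its KO means differed little by treatment. Mlana had 682 ± 52.1 and 917 ± 185 CPM untreated, 544 ± 153 and 655 ± 108 after IgG, and 548 ± 69.8 and 679.6 ± 266 after anti-PD-1, where the KO tumors ranged from 426 to 957 CPM. The factors came next. Mitf had 759 ± 39.9 CPM in WT and 683 ± 48.5 in KO tumors untreated, 623 ± 128 and 773 ± 24.8 after IgG, and 505 ± 102 and 617 ± 49.2 after anti-PD-1. Sox10 had 686 ± 75.03 and 594 ± 128 CPM untreated, 617 ± 95.01 and 775 ± 79.7 after IgG, and 506 ± 176 and 733 ± 66.4 after anti-PD-1. In the mean, the log2 differences were 0.15 for Mitf, the smallest of the 10 together with Tyrp1, and 0.22 for Sox10, and with the background of each library as a covariate 0.03 and -0.01.

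Each KO tumor was above each WT tumor in 2 members untreated (Mlana and Oca2, beside 9.73% of all genes), in 4 after IgG (Tyr, Pmel, Mitf and Slc45a2, beside 5.7%) and in 6 after anti-PD-1 (Tyrp1, Dct, Pmel, Slc45a2, Oca2 and Gpr143, beside 5.33%). Leaving out the 3 libraries gave 3 untreated, with Slc45a2 added (beside 12.6%), and 7 after anti-PD-1, with Tyr added and 1 WT tumor left (beside 13.5%). Over all 9 tumors against 9, 0 members had no overlap, and 3 genes of 30837 had none (0.00973%). By edgeR 0 members were called untreated (beside 0.587% of all genes), after IgG (0%) or after anti-PD-1 (0%). At an unadjusted p under 0.05, 2 members were higher in KO tumors untreated (beside 13.1% of all genes), 2 after IgG (2.15%) and 3 after anti-PD-1 (5.69%). The counts without the 3 libraries were 3 untreated (5.41%), 7 after IgG (4.15%) and 4 after anti-PD-1 (0.869%). The median over all genes was 0.49 untreated and -0.91 after anti-PD-1, the arms that hold the libraries of high background, and -0.14 after IgG, where none of them is. The members had medians of 0.22 untreated, 0.48 after anti-PD-1 and 0.37 after IgG. Without those libraries the medians were 0.31, 0.55 and 0.42, and 0.43 in the mean, and 0 members were called within a treatment, where the lone WT tumor given anti-PD-1 takes its spread from the other groups. With all 18, leaving out 1 tumor moved the untreated median from 0.11 (without WT tumor 1) to 0.30 (without KO tumor 1).

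Other settings called single members within a treatment. After IgG, Slc45a2 was called with only the compared groups in the fit (0.81, adjusted p = 0.0496, beside 0.0259% of genes) and by DESeq2 (0.78, beside 0.0389%). After anti-PD-1, it was called without the filter on low counts (0.82, beside 0.351%), and DESeq2 called Slc45a2 and Dct (0.61 and 0.52, beside 1.57%). Without WT anti-PD-1 tumor 2, which left the 2 WT libraries of high background, edgeR called Slc45a2 and Sox10 (0.64 and 0.76, beside 6.13%).

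**Figure D4:**
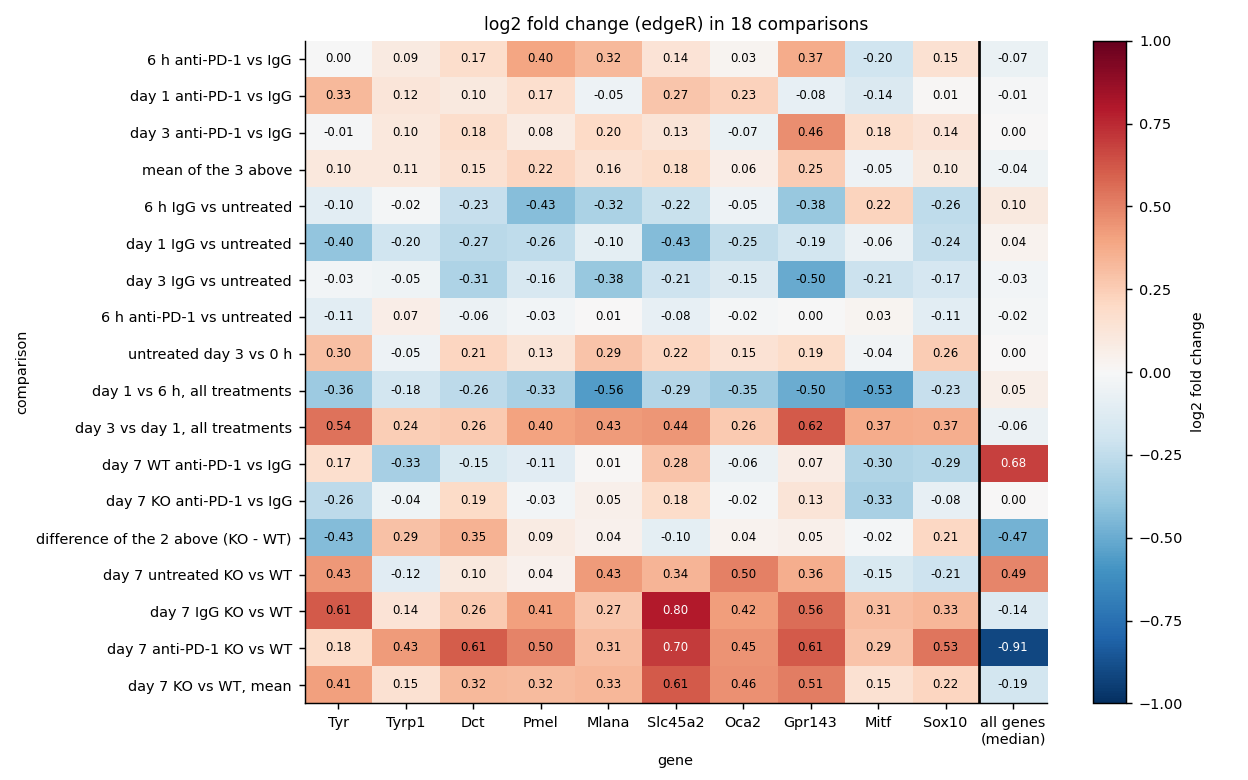
Log2 fold change (color and printed value) of the 10 genes (columns) in 18 comparisons (rows), with the median over all genes in the last column. The members are all below 0 from 6 h to day 1, all above 0 from day 1 to day 3, and all above 0 in KO against WT hosts after IgG, after anti-PD-1 and in the mean.

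Anti-PD-1 against IgG on day 7 gave 0 members called in WT hosts, in KO hosts and in the difference between them (0% of all genes in each), and 0 had an unadjusted p under 0.05. Mitf had the smallest p-value in both hosts, with a log2 difference of -0.30 (SE 0.200, adjusted p = 0.383) in WT and -0.33 (SE 0.200, adjusted p = 1) in KO tumors. The difference between the hosts was first in Tyr, at -0.43 (SE 0.275, adjusted p = 0.714). The medians of the members were -0.08 in WT and -0.02 in KO tumors, where all genes had 0.68 and 0. Without the 3 libraries, which leaves 1 WT tumor given anti-PD-1, Mitf was at -0.01 in WT tumors and the difference between the hosts in Tyr at -0.19, and 0 members were called. That lone tumor takes its spread from the other groups. The median in WT tumors went from -0.23 (without anti-PD-1 tumor 4) to 0.046 (without anti-PD-1 tumor 3), and in KO tumors from -0.072 (without IgG tumor 3) to 0.036 (without IgG tumor 2).

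The balance among the members was read as the log2 level of each relative to the mean of the other 9 in the same tumor. Tyrp1 lay 3.45 to 3.94 (median 3.71) above that mean on the log2 scale in the 9 WT tumors and 3.23 to 3.63 (median 3.47) in the 9 KO tumors. Slc45a2 lay between -2.52 and -1.61 in WT and between -2.00 and -1.35 in KO tumors (medians -1.81 and -1.66). Both pairs of ranges overlapped. Mitf had a median of 0.74 in WT tumors (0.26 to 0.89) and 0.38 in KO tumors (0.21 to 0.77). In the time course its median was 1.10 at 6 h (0.63 to 1.73) and 0.94 on day 1 (0.73 to 1.09). The ranges of Mitf overlapped as well, between the hosts and between these times.

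Markers of other cells were read in the same tumors. All 10 leukocyte and all 10 macrophage markers, and 9 of 10 of fibroblasts, had log2 differences below 0 in KO against WT in the mean. Fibroblast markers summed to 614 to 8999 CPM (median 4020.4) in WT and 979.6 to 4848 CPM (median 2915) in KO tumors, and macrophage markers to 194 to 1622 CPM (median 453) and 156 to 667 CPM (median 406), with none of the 20 at 0 in any tumor. The sums overlapped widely, and with all tumors 0 genes of these lists were called (beside 0.00973% of all genes). Without the 3 libraries, in the fit that called 4 pigment genes higher, edgeR called 4 fibroblast markers lower, Col1a1, Pdgfra, Col6a3 and Thy1 (-1.06, -0.68, -0.93 and -0.82), and 2 leukocyte markers, Ptprc and Laptm5 (-0.96 and -0.84), beside 0.522% of all genes. All 10 fibroblast and all 10 macrophage markers were then below 0 (medians -0.91 and -0.65), 9 of each at an unadjusted p under 0.05 (beside 6.37%). Fibroblast markers summed to 1465 to 8999 CPM in the 7 WT and 1159.8 to 4848 CPM in the 8 KO tumors of that fit. Leukocyte markers were below 0 in 9 of 10 there in the mean, while 7 of 10 were above 0 untreated. Of 9 hypoxia genes, 8 were below 0 in the mean of the same fit (median -0.16), with Ndrg1 at -0.56 and Egln3 at -0.98. WT IgG tumor 3 had the highest macrophage and fibroblast sums of the WT tumors and the lowest Tyr, Pmel, Mlana, Oca2 and Gpr143 of all 18. Hair follicle markers, which come with follicles that hold melanocytes of the host, summed to 1034 CPM in KO untreated tumor 4, where the medians of both hosts were under 2 CPM. That tumor also had the highest Tyr, Tyrp1, Pmel, Mlana and Gpr143 of all 18, and it stayed in the fit without the 3 libraries. In that fit all 8 follicle markers were above 0 in KO against WT untreated (median 10.1), and 7 of 8 were below 0 after IgG (median -3.35). The part of these cells in the higher levels of the pigment genes was not tested. With KO untreated tumor 4 left out and the 3 libraries kept, edgeR called Slc45a2 alone (0.61), as given above. The fit without the 3 libraries was not repeated without that tumor.

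From tumor to tumor within a group, the members went up and down together in the time course. Over the deviations of the 30 tumors from their group means, Mitf correlated with Tyrp1 at r = 0.881 (permutation p = 5e-05, adjusted 0.0009 over 18 relations) and rho = 0.774 (permutation p = 4e-05), and at r = 0.717 without the 2 tumors farthest from the median, 0 h tumors 1 and 3. Tyr followed at r = 0.834 (permutation p = 0.00054, adjusted 0.00324) and rho = 0.681 (permutation p = 0.00053), with r = 0.584 without those tumors. For Pmel, Slc45a2, Mlana, Sox10, Dct and Gpr143, r was between 0.547 (Gpr143, permutation p = 0.0116, adjusted 0.0261, rho = 0.540) and 0.774 (Pmel, permutation p = 0.00242, adjusted 0.00871, rho = 0.637), and between 0.473 (Sox10) and 0.717 (Mlana) without them. Oca2 did not pass, at r = 0.337 (permutation p = 0.123, adjusted 0.185, rho = 0.256). The median r of Mitf with all genes was -0.04. Tumors with more Mitf thus had more of 8 of the other 9 members, and all values of a tumor share its library and its scaling.

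**Figure D5:**
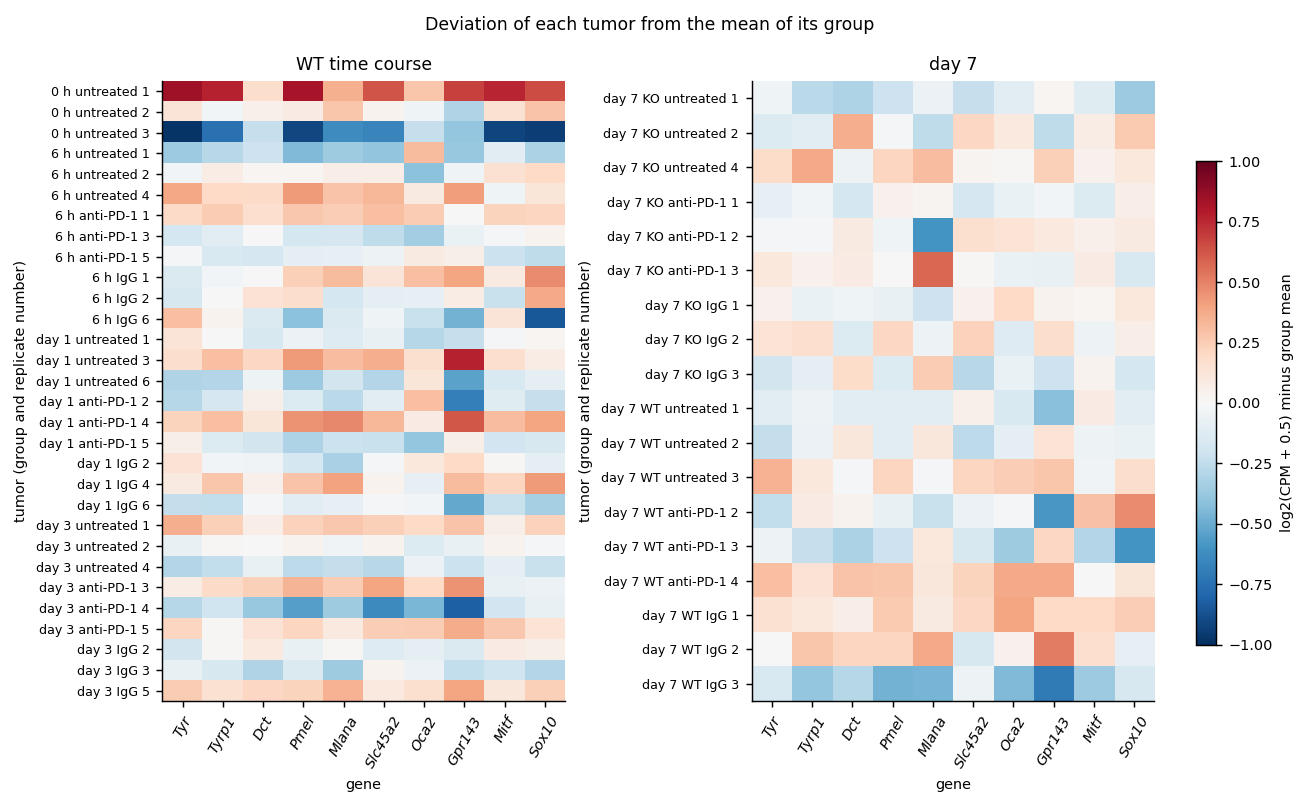
Deviation of each tumor (rows) from the mean of its group, in log2(CPM + 0.5), for the 10 genes (columns), in the time course (left) and on day 7 (right). The 0 h tumors 1 and 3 deviate in opposite directions in all 10 columns.

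On day 7, with 18 tumors, none of the 9 relations with Mitf passed after adjustment. The highest was Dct at r = 0.658 (permutation p = 0.036, adjusted 0.0719) and rho = 0.575 (permutation p = 0.0515), with r = 0.447 without WT IgG tumor 3 and WT anti-PD-1 tumor 3. The lowest was Tyr at r = 0.0673 (permutation p = 0.841, adjusted 0.841) and rho = 0.0341. The median r of Mitf with all genes was -0.361 there. Whether the relations differ between the experiments was not tested.

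The genes outside the panel whose levels were most like the mean of the members over the 30 tumors of the time course, among 14795 with at least 1 CPM on average, were Sdhb (r = 0.956), Glrb (0.949), Rab27a (0.946), Sort1 (0.942), Erg28 (0.942), Car14 (0.941), Foxk2 (0.935) and Suclg1 (0.933). Sdhb and Suclg1 encode subunits of enzymes of the citric acid cycle, and Rab27a a GTPase that moves melanosomes. Over the 18 tumors of day 7 their r was between 0.573 (Erg28) and 0.883 (Sdhb). Of the members themselves, Pmel was closest to the mean of the 10 in the time course (r = 0.960) and Oca2 farthest (0.647). On day 7 Pmel was again closest (0.963), while Oca2 was at 0.884 and Sox10 was farthest (0.583). Each member is itself part of that mean, which raises its r. These r describe the order of tumors that share the same libraries, and genes are not independent replicates.

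Other genes of the melanosome and of the lineage gave 0 calls by edgeR in all 18 comparisons, as did each of the 17 lists that were read, where all tumors of an experiment were fitted. Of 28 genes of melanosome biogenesis and transport, 7 were lower and 1 higher on day 1 than at 6 h at an unadjusted p under 0.05 (beside 7.55% and 9.39% of all genes, median -0.12), among them Slc24a5, an ion exchanger of the melanosome (-0.35), Cd63, a membrane protein of melanosomes and endosomes (-0.31), and Tpcn2, a cation channel of the organelle, in the other direction (0.62). On day 3 against day 1, 7 were higher and 1 lower (beside 5.95% and 7.77%, median 0.14), with Slc24a5 at 0.30, Rab27a at 0.38 and Tpcn2 at -0.54. In KO against WT hosts in the mean, 6 were higher (beside 5.07%, median 0.10), with Slc24a5 at 0.38, Rab38, a GTPase that delivers pigment enzymes, at 0.39 and Mreg, which acts in melanosome movement, at 0.32. Without the 3 libraries that median was 0.15, with 20 of 28 above 0 and 8 below. In the fit without the 3 libraries, edgeR called Slc24a5 (0.46), Rab38 (0.46) and Rab27a (0.40) higher (3 of 28, beside 0.872%).

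Of 14 other genes that Mitf is known to drive, Trpm1, a cation channel of melanocytes, was at 0.62 in KO against WT hosts (SE 0.115, adjusted p = 0.100), with 3 of 14 higher and 1 lower at an unadjusted p under 0.05 (beside 5.07% and 7.3% of all genes). It was called without the 3 libraries (0.75, adjusted p = 0.00355). The median of the 14 without those libraries was 0.19, with 10 above 0 and 4 below. From 6 h to day 1 Trpm1 was at -0.40 and from day 1 to day 3 at 0.59. Rragd, a GTPase of the nutrient-sensing pathway, was at -0.55 and then 0.53, where 1 of 14 was lower and 1 higher, near the shares of all genes (7.55% and 9.39%), and then 3 higher (beside 5.95%). Among 16 regulators and receptors of the lineage, 4 were lower and 1 higher on day 1 than at 6 h (beside 7.55% and 9.39%, median -0.05), with Erbb3 at -0.41 and Pax3 at -0.29, and 0 differed between day 1 and day 3 at an unadjusted p under 0.05. Only Kit, the receptor of stem cell factor, had such a p in KO against WT hosts with all tumors fitted (0.23). Without the 3 libraries Kit was at 0.28, Lef1 at 0.53, Zeb2 at -0.37 and Ednrb at -0.62, with 8 of the 16 above 0 and 8 below. Of 9 genes of dedifferentiated melanoma, 6 were higher and 1 lower on day 1 than at 6 h (beside 9.39% and 7.55%, median 0.50), with the factor gene Jun at 0.46, the receptor kinase Axl at 0.49 and Fosl1 at 1.24. In KO against WT hosts 2 were higher and 3 lower (beside 5.07% and 7.3%), with Ngfr, the receptor of neural crest-like melanoma cells, at -1.19, and without the 3 libraries Ngfr was called (-1.52, adjusted p = 0.0144). Of the 9, 6 were below 0 and 3 above without those libraries (median -0.35). Axl and Jun are also used by stromal and immune cells.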

How the data were processed

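RNA was sequenced from 48 tumors as strand-specific libraries on a NovaSeq instrument. Per the methods of the authors and the labels, adapters were removed with cutadapt 1.8.1, reads were aligned to mm10 with STAR 2.7.7a, and RSEM 1.3.0 gave the reads of each gene of GENCODE vM21, while the name of the table refers to another counting program. The deposited values are whole-number counts per gene and tumor, without normalization, as the authors made them. Times of 6 h and day 7 are from the results text and figure legends of the study, since the titles give D0 for the former and no time for the latter. Each experiment was fitted on its own in edgeR 4.0.16 (R 4.3.3), with TMM scaling, filterByExpr at a minimum count of 10 (26848 genes in the time course and 30837 on day 7), 1 coefficient per group and the quasi-likelihood F-test, two-sided. Benjamini-Hochberg adjustment covered every gene tested in a comparison, at a threshold of 0.05, and the p-values measure the spread between these tumors only. CPM are TMM-scaled and were divided by the exon length of vM21 where genes are compared. Residual degrees of freedom were 20 and 12. The fit was also run on simulated day 7 data with less spread than these tumors and larger differences than those of the members. That run therefore does not show how well differences of the size seen here would be found. The common coefficient of variation was 0.671 and 0.786, and depth was 11625862 to 47687872 counts. Correlations used deviations of log2(CPM + 0.5) from group means, with 100000 permutations within groups.

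The rule for naming gave every member its level in each group, and statistics to members past the threshold or, where none passed, to the one with the smallest p-value. From each other list it named up to 3 genes by p-value, and outside the lists the 8 genes most like the mean of the members. The members and the lists were chosen with earlier results of these data known, and 2 of the 18 comparisons were added after the values were seen. Alternatives were the size factors and the Wald test of DESeq2 1.42.0, no filter on low counts, a block by replicate number, only the compared groups in the fit, the receptor background subtracted or as a covariate, the day 7 fit without its 3 libraries of highest background, and each tumor left out in turn. Replicates of a group were no copies, as the chi-square per gene was 16.2 to 410.8 over 48 pairs.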

Additional observations from a re-analysis of the deposited data

How the results depend on the processing

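Of the counts of members called and the medians of their log2 differences in 18 comparisons, 596 values under other settings stayed within 1.5 times the count or within 1 SD, and 16 did not. That SD, of the medians of single tumors, was 0.089 to 0.513, so a median could change sign within it. Day 3 against 0 h went from 0.20 to -0.02 within an SD of 0.513, with 1 tumor left out. Anti-PD-1 against IgG on day 1 went from 0.11 to -0.065 within an SD of 0.247. With the receptor background as a covariate, the median was -0.076 for anti-PD-1 against IgG at 6 h, 0.048 for IgG against untreated at 6 h and 0.18 for KO against WT after anti-PD-1. Members called were 2 from 6 h to day 1 without the filter on low counts and 2 by DESeq2, and 1 from day 1 to day 3 without the filter. After IgG, KO against WT gave 1 with only the compared groups in the fit and 1 by DESeq2. After anti-PD-1 it gave 1 without the filter and 2 by DESeq2, and in the mean 3 without the filter, 3 by DESeq2 and 4 without the 3 libraries of high background. Leaving out 1 tumor at a time gave 0 to 2 after anti-PD-1 and 0 to 1 in the mean. Of the log2 differences of single genes, 292 kept their direction and side of the threshold, 13 passed it, and Tyr in anti-PD-1 against untreated at 6 h ranged from -0.27 to 0.11 with 1 tumor left out, the latter without untreated tumor 4. The cause of these changes was not tested.

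Without 0 h tumor 3 and 6 h IgG tumor 6 together, chosen after seeing the data, Mitf had -0.51 from 6 h to day 1 (edgeR, adjusted p = 0.0961), and 0 members were called in any comparison of the time course. Tumors with the same replicate number did not deviate together, with a median correlation of -0.03 over 65 pairs in the time course and -0.02 over 36 pairs on day 7, so the numbers were not taken as pairs. With a block by replicate number, 0 members were called in any comparison, and Slc45a2 in KO against WT in the mean had 0.60. Depth limits Gpr143 most, at 3.18 to 17.01 CPM.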
